A study of Homo sapiens with 2 samples.

Results

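The genes of MHC class I antigen presentation were examined in U251, an established line of human glioma cells, after transfection with miR-31 or with a control. They were the class I heavy chains HLA-B, HLA-C, HLA-E and HLA-F, the light chain B2M, the peptide loading genes TAP1, TAP2 and TAPBP, and the transcriptional activator NLRC5. The members were named as a functional group with results of the same contrast already known, so their values are a description and no p-value is given. All probe sets whose platform annotation gave exactly one of these symbols were taken, which made 25 probe sets for the 9 genes, out of 54675 probe sets and 19775 genes named by a single symbol. One array of cells over-expressing miR-31 (written has-miR-31 in the labels) was set against 1 array of control-transfected cells, both on the Affymetrix HG-U133_Plus_2 design, which reads transcripts near their 3' end. Both cultures grew in DMEM with serum, and the labels do not state the construct, the time after transfection or whether the cells were a clone. With 1 array in each group there is no replicate spread, and the number of arrays limits the precision of every value. In these whole-culture RNA samples, fewer cells carrying a transcript and less of it per cell cannot be told apart.

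Class I molecules show peptides from inside the cell to CD8 T cells and to receptors of natural killer cells. Peptides cut by the proteasome are carried into the endoplasmic reticulum by the TAP1 and TAP2 transporter, and tapasin, the product of TAPBP, holds empty class I molecules at the transporter until a peptide is bound. Each heavy chain needs B2M to reach the surface in its usual form. NLRC5 is the activator that binds, with other factors, to the promoters of the class I genes. Interferons raise the transcription of most genes of this pathway in many cell types, and glioma cells carry class I molecules at varying levels.

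All 9 genes had a higher value on the miR-31 array than on the control array, but the sizes differed widely. NLRC5 and TAP1 were more than 2-fold higher, HLA-F, TAP2 and TAPBP were higher by smaller amounts, and HLA-B, HLA-C, HLA-E and B2M differed least. Ratios are log2(intensity + 16) on the miR-31 array minus the same on the control array, a scale that understates the change of dim genes. The median ratio of the 9 genes was 0.54, against 0.03 over all 11787 genes compared. At least 2-fold higher were 2 of the 9 genes, beside 3.74% of all genes compared, and 0 of the 9 were at least 2-fold lower, beside 1.58% of all. A ratio above 0 was found in 9 of the 9, beside 53.2% of all genes. The direction of the small differences depends on the scale: with the poly-A spike-in control sets taken as the zero point, which shifts every ratio by -0.51, HLA-B, HLA-C, HLA-E and B2M lay below 0 and the other 5 genes above it.

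**Figure D1:**
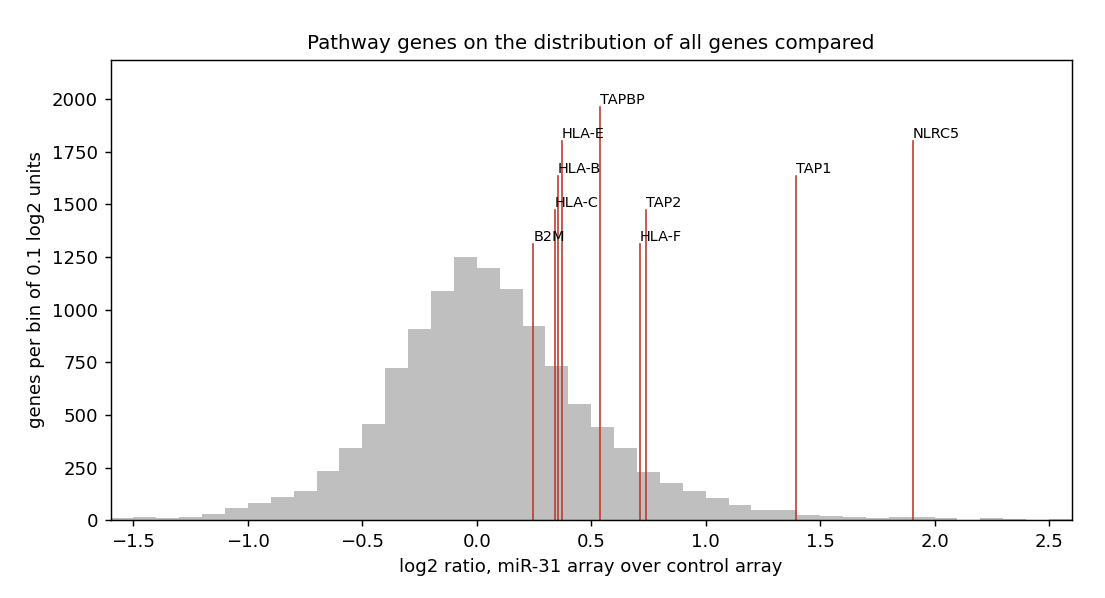
Histogram of the log2 ratios (miR-31 array over control array) of all 11787 genes compared, in bins of 0.1, with a red line at the ratio of each class I pathway gene. B2M (0.25) and the HLA-B, HLA-C and HLA-E genes lie on the right shoulder of the distribution, while TAP1 (1.39) and NLRC5 (1.91) lie in its upper tail.

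The promoters of the members show which of them carry the short sequences that interferon and NF-kB factors are known to bind. They are given here so that each gene's ratio can be read beside its own promoter. Windows for 7 of the 9 genes, HLA-E and NLRC5 being the others, were matched by symbol in RefSeq (GRCh38.p14), and the 200 bases before the annotated start are printed 5′ to 3′ on the strand of the gene. TAP1 had 2 windows, and the one at the 5′ end of the gene was used. Capitals mark matches, on either strand, to the interferon response element core (GAAA, any 2 bases, GAAA), to AAGTGAAA (the form of that element in class I heavy chain genes), to the kB motif (GGG, any 2 bases, TTTCC) and to GGGGATTC (the enhancer A of class I heavy chain genes). Matches may overlap. These letters were chosen from background knowledge after the windows had been read, and the reference sequence may differ from the alleles of U251 cells.
HLA-B, chr6:31357180-31357379, minus strand: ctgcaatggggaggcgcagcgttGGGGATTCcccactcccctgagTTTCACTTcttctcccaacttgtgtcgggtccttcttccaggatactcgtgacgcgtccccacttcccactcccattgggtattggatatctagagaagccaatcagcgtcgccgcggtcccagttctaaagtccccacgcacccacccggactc
HLA-C, chr6:31272093-31272292, minus strand: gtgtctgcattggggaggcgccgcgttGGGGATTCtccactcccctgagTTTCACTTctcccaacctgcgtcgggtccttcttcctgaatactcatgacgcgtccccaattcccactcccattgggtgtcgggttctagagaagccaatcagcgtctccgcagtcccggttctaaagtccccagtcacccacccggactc
HLA-F, chr6:29723234-29723433, plus strand: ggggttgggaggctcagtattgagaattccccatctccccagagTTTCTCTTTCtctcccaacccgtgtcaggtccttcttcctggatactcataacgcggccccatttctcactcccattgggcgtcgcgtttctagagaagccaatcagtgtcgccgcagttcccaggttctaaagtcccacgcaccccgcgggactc
B2M, chr15:44711317-44711516, plus strand: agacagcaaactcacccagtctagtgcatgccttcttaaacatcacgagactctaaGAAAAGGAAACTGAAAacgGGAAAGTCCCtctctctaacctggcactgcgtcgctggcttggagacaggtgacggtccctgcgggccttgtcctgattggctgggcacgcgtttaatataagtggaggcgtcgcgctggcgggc
TAP1, chr6:32853705-32853904, minus strand: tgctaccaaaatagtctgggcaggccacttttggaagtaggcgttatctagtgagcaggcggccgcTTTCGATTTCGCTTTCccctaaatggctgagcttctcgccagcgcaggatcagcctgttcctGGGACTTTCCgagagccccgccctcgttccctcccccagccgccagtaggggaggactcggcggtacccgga
TAP2, chr6:32838740-32838939, minus strand: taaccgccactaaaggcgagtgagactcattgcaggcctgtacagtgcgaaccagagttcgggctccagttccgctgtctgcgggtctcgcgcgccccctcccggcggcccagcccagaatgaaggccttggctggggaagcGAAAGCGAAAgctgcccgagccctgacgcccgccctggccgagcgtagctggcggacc
TAPBP, chr6:33314079-33314278, minus strand: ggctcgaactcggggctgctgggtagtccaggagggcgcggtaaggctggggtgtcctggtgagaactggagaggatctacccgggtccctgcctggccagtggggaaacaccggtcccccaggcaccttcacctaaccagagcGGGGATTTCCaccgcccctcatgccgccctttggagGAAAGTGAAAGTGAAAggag

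Pairs of GAAA separated by 2 bases stood in 5 of these 7 windows (HLA-F, B2M, TAP1, TAP2 and TAPBP), and in 3.57% of all 35116 windows of 300 bases in the table. The longer form with 3 GAAA at the same spacing, which holds overlapping pairs, stood in B2M, TAP1 and TAPBP and in 0.154% of all windows. In TAP1 it began 134 bases before the start, in B2M 144 bases before and in TAPBP 20 bases before. HLA-B and HLA-C had AAGTGAAA instead, 155 and 151 bases before the start, as did TAPBP (1.62% of all windows), where it overlaps the GAAA repeats. The kB motif was in B2M, TAP1 and TAPBP (1.91% of all windows), and GGGGATTC in HLA-B and HLA-C (0.888%). The interferon-gamma motif TTCNNNGAA (N is any base) was in 0 of the 7 windows and in 7.66% of all. CCAAT, the letters of the Y box of the class I promoter module, was in 5 (34.6% of all). The CCAAT matches of HLA-B, HLA-C, HLA-F and B2M lay within the printed bases. That of TAP1 began 249 bases before the start, outside the printed bases, and whether it serves as a Y box was not tested. TGACG, the core of the X2 box of the module, was in 4 (24.6%). A match describes letters only, and whether a factor was bound in these cells was not measured. Of the genes with the long GAAA repeat, TAP1 had a ratio of 1.39 on its only set, TAPBP had 0.45 to 0.94 over its 3 sets and B2M 0.16 to 1.31 over its 3.

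NLRC5, the activator of class I transcription, had an intensity of 426 on the miR-31 array and 102 on the control array. This is a log2 ratio of 1.91, or 3.75-fold on that scale, and it was the 74th highest of the 11787 genes compared, so 0.628% of genes had a ratio as high. It was read by 1 probe set, and a stricter level minimum at the 75th percentile of probe sets left it out because its control value is low. Its ratio depended on the pseudocount, with 2.05 for a pseudocount of 1 and 1.56 for 64.

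**Figure D2:**
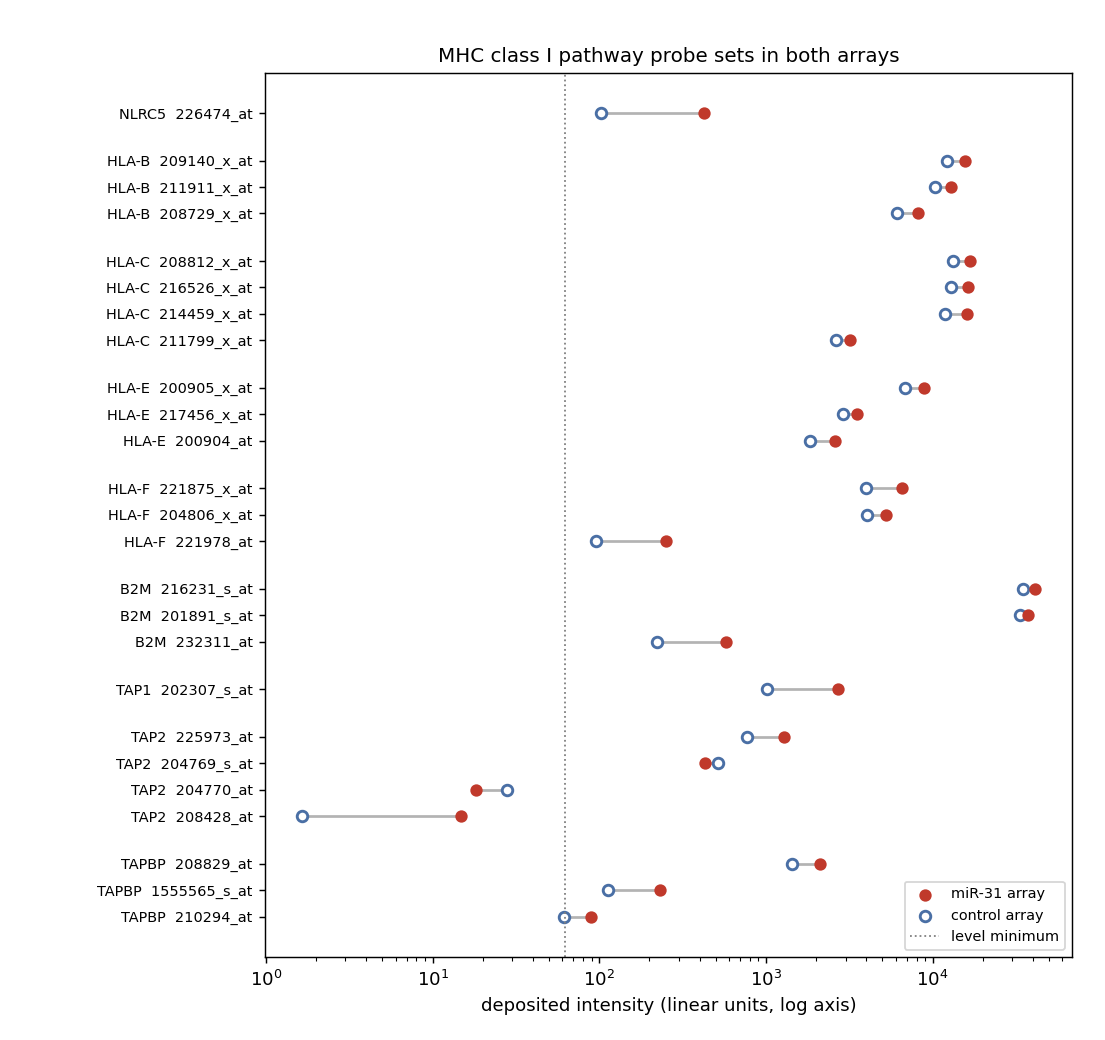
Deposited intensity (log axis) of each of the 25 probe sets on the miR-31 array (filled) and on the control array (open), grouped by gene, with the level minimum of 62.7 dotted. The filled point lies to the right of the open one in 23 of the 25 rows, the 2 exceptions being probe sets of TAP2, and the gap is widest in proportion for a TAP2 set below the minimum and for NLRC5.

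The heavy chains HLA-B and HLA-C, which present peptides to CD8 T cells and, in the case of HLA-C, are the main class I ligands of killer cell immunoglobulin-like receptors, had small ratios on all their probe sets. HLA-B had 15589 on the miR-31 array and 12181 on the control array on its brightest set, a ratio of 0.36. Its other 2 sets had 12873 against 10285, and 8218 against 6093, with ratios of 0.32 and 0.43. HLA-C had 16820 against 13277 on its brightest set, a ratio of 0.34. Its 4 sets lay close together, with the lowest at 0.28 (3197 on the miR-31 array and 2633 on the control array) and the highest at 0.44 (15994 against 11825).

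HLA-E, a chain of little polymorphism that shows leader peptides of other class I chains to the NKG2A receptor of natural killer cells, had 8900 on the miR-31 array and 6870 on the control array, a ratio of 0.37. A second set had 3510 against 2905, a ratio of 0.27. The probe set of HLA-E with no flag for shared probes had 2605 against 1824, a ratio of 0.51. HLA-F, a nonclassical chain that can stand on the cell surface without peptide, had the highest ratio of the heavy chains on their brightest sets. Its brightest set had 6519 on the miR-31 array and 3969 on the control array, a ratio of 0.71, and another had 5265 against 4044, a ratio of 0.38. The remaining set, with no flag for shared probes, had 251.3 against 95.7, a ratio of 1.26. The 3 sets of HLA-F thus ran from 0.38 to 1.26, while the 10 sets of HLA-B, HLA-C and HLA-E together ran from 0.27 to 0.51.

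Of the 13 HLA probe sets, 11 are named _x_at by the manufacturer, meaning that some of their probes also match other sequences, so their values may mix several class I genes. The ratios of these 11 had a median of 0.36 and lay between 0.27 and 0.71. Probe sets assigned to HLA-G, a chain known mainly from placenta, and to the pseudogene HLA-J gave ratios above 0 too, with names that also end in _x_at. The 4 sets of HLA-G lay between 0.14 and 0.33, with the brightest at 9774 on the miR-31 array and 7794 on the control array, and HLA-J had 0.34 (2608 against 2054). Of the HLA-G sets, those at 0.14 and 0.23 lay below all 11 sets of the members. With poly-A centring all of the HLA-G and HLA-J ratios lie below 0, and with hybridisation control centring the lowest HLA-G ratio does. How much of any of these values comes from 1 particular class I gene was not tested.

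B2M, the light chain shared by all these molecules, had the smallest ratio of the 9 genes on its brightest probe set, 0.25, with 41199 on the miR-31 array and 34693 on the control array. A second bright set had 37369 against 33424, a ratio of 0.16, which turns to -0.03 with the hybridisation controls as the zero point. Both values stand close to the highest of any probe set on their arrays, 48627 on the miR-31 array and 44755 on the control array. Compression of such bright signals was not tested. The remaining set of B2M had 576 on the miR-31 array and 223 on the control array, a ratio of 1.31. The 3 sets therefore do not give 1 size for B2M. Where in the transcript each set lies was not examined here.

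The transporter genes differed from each other. TAP1 had 2686 on the miR-31 array and 1012 on the control array, a ratio of 1.39 or 2.63-fold on that scale, and was the 167th highest of the 11787 genes (1.42% of genes had a ratio as high). It was read by 1 probe set. TAP2, its partner in the transporter, had 1286 on the miR-31 array and 764 on the control array on its brightest set, a ratio of 0.74. Its second set above the level minimum had 430 on the miR-31 array and 512 on the control array, a ratio of -0.24, the opposite sign. Another 2 sets of TAP2 were below the minimum, with 18.3 against 28.05 and with 14.7 against 1.64, where a difference cannot be separated from background. The direction of TAP2 thus rests on the brightest of its sets, and the mean of its 2 kept sets was 0.25. TAPBP, the tapasin gene, had 2095 on the miR-31 array and 1436 on the control array, a ratio of 0.54, with its other sets at 0.94 (232 against 113) and 0.45 (89.4 against 61.1). All 3 of its sets were higher on the miR-31 array.

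**Figure D3:**
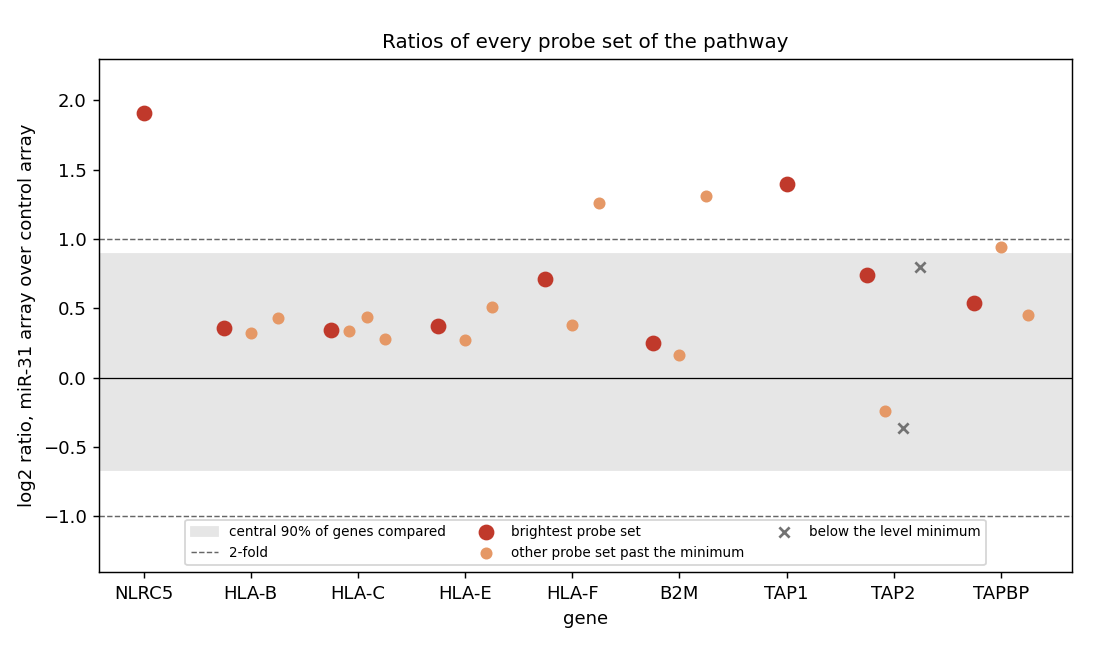
Log2 ratio (miR-31 array over control array) of every probe set by gene, with the brightest set of a gene in red, other sets past the level minimum in orange and sets below it as crosses; the grey band holds the central 90% of genes compared, and dashed lines mark 2-fold. NLRC5, TAP1 and the dim sets of HLA-F (1.26) and B2M (1.31) lie above 2-fold, and the second TAP2 set (-0.24) lies below 0.

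Over all probe sets, 23 of the 25 passed the level minimum, and 22 of these 23 had a ratio above 0, beside 54.6% of the 22467 named probe sets that passed it. At least 2-fold higher were 4 of the 23, beside 3.58% of those probe sets. Pairs of sets within a gene gave a gauge of noise: across 3142 genes with exactly 2 kept sets, their disagreement corresponded to an SD of 0.33 for a single ratio, and of 0.19 across the 340 of these with the highest levels. It leaves out differences between cultures. TAP1 and NLRC5 exceeded 0.33 several-fold, but each was read by 1 probe set and no SD was computed at the low level of NLRC5. HLA-B, HLA-C and HLA-E (0.34 to 0.37) barely exceeded 0.33 and B2M (0.25) lay within it, although all 4 exceeded 0.19. These 4 genes and HLA-F lie above the 75th percentile of level among genes compared, where the robust SD of ratios over 2947 genes was 0.29 around a median of -0.05 and 1.26% of genes were at least 2-fold higher.

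The proteins that help class I molecules fold and trim their peptides did not share these ratios. Of 9 loading partners, 8 were compared, 0 were at least 2-fold higher or lower, 2 had a ratio above 0 and the median was -0.15. The chaperones CALR (0.09, with a kept set at -0.29), CANX (-0.17), HSPA5 (-0.15) and PDIA3 (-0.47, with a kept set at 0.17) lay near or below 0. So did the glucosidase subunit GANAB (-0.15) and the glycoprotein folding sensor UGGT1 (-0.01, with a kept set at 0.57). The exception in size was ERAP2, a peptidase that trims peptides for class I, with 1094 on the miR-31 array and 567 on the control array, a ratio of 0.93 and 1.17 on its highest set. Its relative ERAP1 had 598 against 678, a ratio of -0.18, but another of its sets had 0.95. TAPBPL, a tapasin relative, had 19.1 on the miR-31 array and 21.1 on the control array and was below the level minimum. The sign of CALR on its brightest set turns negative if either class of spike-in control is taken as the zero point.

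The immunoproteasome cuts peptides suited to class I, and its genes differed among themselves. Of 5 genes compared, 1 was at least 2-fold higher (3.74% of all genes), 4 had a ratio above 0 (53.2% of all genes) and the median was 0.92. PSMB9 had 1532 on the miR-31 array and 492 on the control array, a ratio of 1.61. PSMB8 had 3407 against 1791 (0.92) and PSME1, a subunit of the proteasome activator, had 3319 against 1658 (0.99). PSMB10 had 2028 against 1819 (0.16), a ratio that falls below 0 with either class of spike-in control as the zero point, and POMP, an assembly factor of all proteasomes, had 13785 against 14442 (-0.07). A list of standard proteasome subunits had a median of -0.08 over 12 genes, with 0 past 2-fold either way. It held PSMB5 (-0.15), PSMB6 (0.03) and PSMB7 (-0.20, with a kept set at 0.25), which PSMB8, PSMB9 and PSMB10 replace. The other subunits of the list are shared with the immunoproteasome. The brightest of them were PSMB1 at -0.02 (with a kept set at 0.65), PSMA2 at -0.07 and PSMB3 at 0.04. PSMA5, named after its values were seen, had -0.15 but 1.30 on its other set.

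In the genome, 7 of the 9 members lie in the MHC on chromosome 6, B2M lies on chromosome 15 and NLRC5 on chromosome 16. In RefSeq gene order, 80 genes compared lay from HLA-F to TAPBP, of which 73 were not members. This interval was chosen after the values had been seen. The 73 had a median ratio of 0.02, against 0.03 over all genes compared. Among them 38 were above 0, beside 53.2% of all genes, 4 at least 2-fold higher, beside 3.74%, and 1 at least 2-fold lower, beside 1.58%. The members' ratios thus did not extend to the interval as a whole. In the middle of the class II region, however, 5 neighbours stood together: TAP2 (0.74), PSMB8 (0.92), PSMB8-AS1 (1.21), TAP1 (1.39) and PSMB9 (1.61). The other kept set of TAP2 had -0.24. TAP1 and PSMB9 are neighbours that point away from each other. PSMB8-AS1 is an antisense RNA of PSMB8 that lies between it and TAP1. The genes compared next to this block were HLA-DQB1 (0.51) before it, from a dim level, and HLA-DMB (-0.13) after it. The other genes past 2-fold were HCP5, a noncoding RNA gene near HLA-B (250.5 against 56.1, ratio 1.89), the complement factor gene CFB (185 against 77.2, ratio 1.11) and IER3 (-2.63). PSMB8-AS1, HCP5, CFB and IER3 were picked for their ratios.

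**Figure D4:**
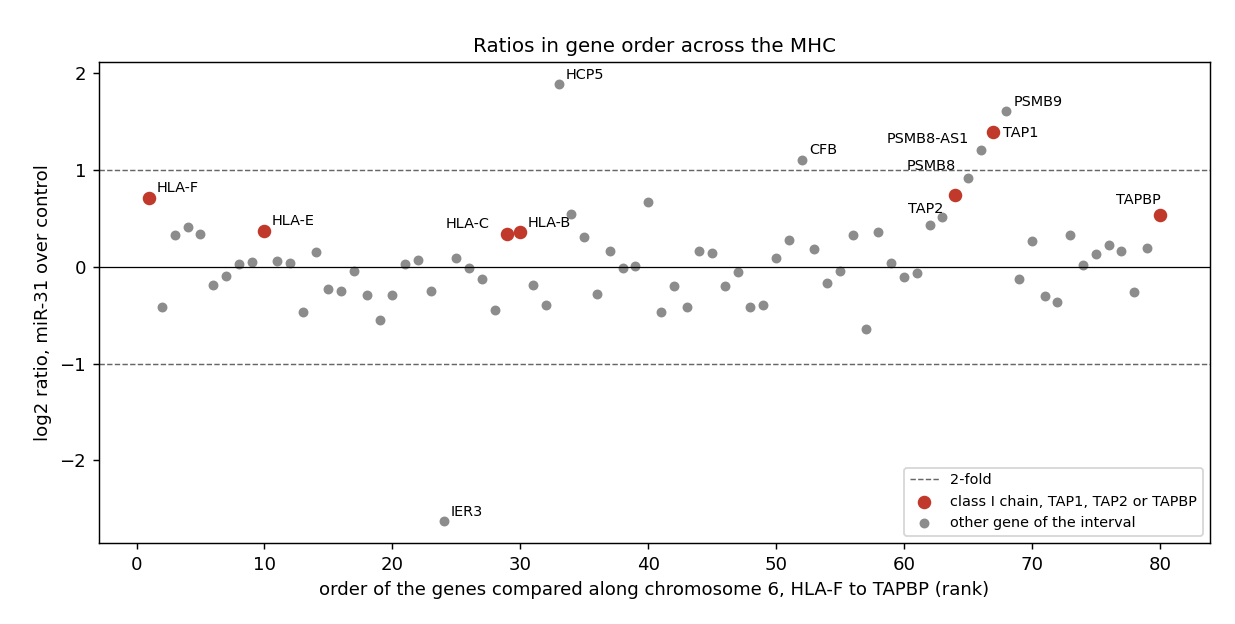
Log2 ratio (miR-31 array over control array) of the 80 genes compared from HLA-F to TAPBP, by their order along chromosome 6, with the 7 members in red and other genes in grey; dashed lines mark 2-fold. Most genes of the interval scatter around 0, and the block from TAP2 to PSMB9 climbs from 0.74 to 1.61. Each gene is drawn at its brightest set, and the other kept set of TAP2 (-0.24) is not shown.

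Class II genes, which present peptides from outside the cell and depend on the activator CIITA, had low values. Of 12 named genes 3 passed the level minimum, 0 of them past 2-fold, and the median was -0.13. HLA-DMB had 92.1 on the miR-31 array and 102 on the control array, HLA-DQB1 had 114 against 75.01 (0.51) and HLA-DOA had 72.7 against 93.0 (-0.30). The brightest probe set of CIITA had 65.8 on the miR-31 array and 33.5 on the control array, below the minimum for the mean of both arrays. HLA-DMA had 96.9 on the miR-31 array and 19.9 on the control array, also below that minimum and named after its values were seen, which was the widest difference in intensity between the brightest sets of the class II genes that did not pass. No class II or CIITA probe set exceeded 114 on the miR-31 array or 102 on the control array.

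Factors that bind class I promoters had a median of 0.03 over 12 genes compared, with 1 at least 2-fold higher and 0 lower, and the sign of this median changed with the setting. The brightest were RFX5, the DNA-binding subunit of the complex that NLRC5 joins, with 2747 on the miR-31 array and 2185 on the control array (0.33, with a kept set at 1.26), CREB1 (0.07, with 7 sets between -0.31 and 0.54) and RELA (-0.01). The gene past 2-fold was IRF9, the DNA-binding subunit of the type I interferon complex ISGF3, with 1979 against 475, a ratio of 2.02. IRF1, which binds the interferon response element of class I genes, had 602 against 352, a ratio of 0.75. IRF9 and IRF1 were picked after their values were seen. Of 15 interferon genes named on the array, 0 passed the level minimum, and their highest intensity was 46.7 on the miR-31 array and 50.6 on the control array.

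Most markers of other cell types were below the level minimum. Of 11 microglia and macrophage markers named, 2 passed the level minimum (CSF1R at 0.35 and ITGAM at -0.25), and the summed intensity of the list's 24 probe sets was 469 on the miR-31 array and 400.2 on the control array. PTPRC, the marker of all leukocytes, had 17.0 on the miR-31 array and 30.1 on the control array on its brightest set. Of 9 lymphoid markers 1 passed, CD79A (0.51), with a summed intensity of 516 on the miR-31 array and 394 on the control array. Of 7 endothelial markers 2 passed. KDR, a receptor of vascular endothelial growth factor, had 281 on the miR-31 array and 539 on the control array (-0.90), and PECAM1 had 0.03. The list had sums of 719 on the miR-31 array and 857 on the control array. No marker was listed at 0. For the labelled glioma origin, VIM, CD44 and SOX2 were the brightest of 8 astroglial and glioma markers compared and had 34112, 20146 and 17486 on the miR-31 array and 29991, 23866 and 13333 on the control array, while AQP4 and S100B were below the minimum. Kept sets of CD44 ran from -0.69 to 0.28 and those of SOX2 from -0.48 to 0.60. The list had a median ratio of -0.23, with 3 of the 8 above 0 and 0 past 2-fold. Its largest differences were GJA1 (-0.91), NES (-0.91, with a kept set at 0.03), GFAP (0.85, with a kept set at 1.03) and SOX9 (-0.56), which are named after their values were seen. The part of these lists in the class I values was not tested.

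**Figure D5:**
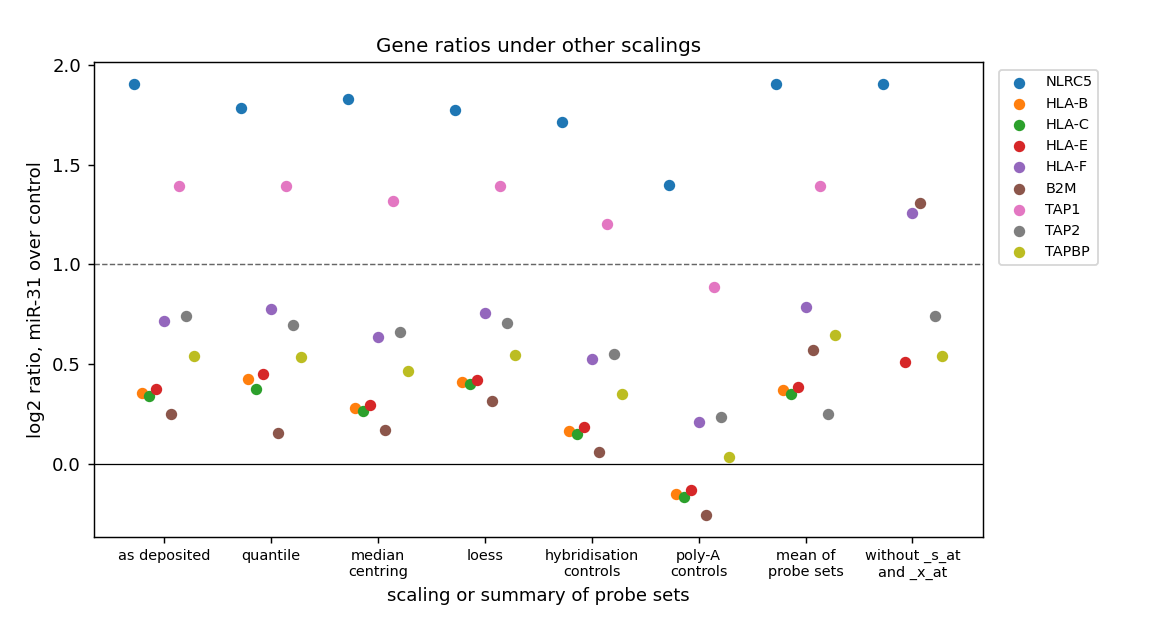
Log2 ratio (miR-31 array over control array) of each pathway gene on the deposited scale, under 5 other scalings and with 2 other summaries of probe sets; the dashed line marks 2-fold. NLRC5 and TAP1 stay highest under each scaling, HLA-B, HLA-C, HLA-E and B2M cross below 0 only under poly-A control centring, and without _s_at and _x_at sets only 6 genes remain.

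Of the 5 scalings tried, 3 shift every ratio by the same amount and so cannot alter the order of the genes. Under the other scalings, quantile and loess, HLA-F (0.77 and 0.76) stood above TAP2 (0.70 and 0.70), which it did not on the deposited scale. Under all 5 NLRC5 had the highest ratio, from 1.40 to 1.83, and TAP1 the next, from 0.89 to 1.39. B2M had the lowest under each of them, from -0.26 to 0.32. Without the _s_at and _x_at sets, HLA-B, HLA-C and TAP1 had no set left, and B2M had 1.31 and HLA-F 1.26, so the position of B2M depends on which of its sets is read. With the mean of the kept sets, B2M had 0.57 and TAP2, at 0.25, was the lowest of the 9.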

How the data were processed

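The deposited table gives 1 linear intensity for each probe set on each of 2 arrays. Both arrays had a trimmed mean of 499.9. The software that made the values was not given in the sources used here, and no detection calls were used. Ratios were taken on log2(intensity + 16), computed here from the deposited intensity. Probe sets with 1 gene symbol in the supplied platform annotation were used (41091), control probe sets were left out, and a set passed the level minimum if its mean log2 level reached the 50th percentile over the whole array, equal to an intensity of 62.7. The brightest passing set stood for a gene. All 9 members matched RefSeq by Entrez identifier. The members and lists were chosen with earlier results of these data known. The text names all members, all compared loading partners and immunoproteasome genes, and up to 3 of the brightest genes of each other list. Most others are said to be picked after their values were seen. TAPBPL, CIITA, PTPRC, AQP4, S100B, HLA-J, PSMB5, PSMB6 and PSMB7 are named outside this rule without such a statement. The calculation was tested on simulated data. Scalings, pseudocounts, filters and probe set summaries were varied. Python 3.11.15, numpy 2.4.6, pandas 2.3.3, statsmodels 0.14.6 and matplotlib 3.10.9 were used.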

Additional observations from a re-analysis of the deposited data

How the results depend on the processing

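No paired analysis was possible because there was a single array per group, and leaving one out would end the comparison. A value counts as unmoved here if it shifted by less than the probe set SD of 0.33, and a count if it stayed within 1.5 times. The members' median ratio of 0.54 was unmoved under 9 of 11 alternatives. For median, hybridisation control and poly-A centring this outcome was fixed by the constants subtracted, 0.08, 0.19 and 0.51. The cutoff is the SD of a single probe set ratio, not of a median. The members' median was 0.034 centred on the poly-A controls and 0.999 without _s_at and _x_at sets, which left 6 members. The number of members at least 2-fold higher, 2, was 1 under poly-A centring, 1 with the stricter level filter, which left 8 members, and 4 at 1.5-fold. Centred on the poly-A controls, HLA-B had -0.15, HLA-C -0.17, HLA-E -0.13 and B2M -0.26, and no member changed sign under the other alternatives run. The shift of the median of all genes was -0.51 there and -0.19 with the hybridisation controls. Among all genes, 441 were at least 2-fold higher, and this count was 266 under hybridisation control centring, 136 under poly-A centring, 1184 with no level minimum, 151 with the stricter one, 1376 at 1.5-fold and 283 if the pseudocount was 64. The number at least 2-fold lower, 186, was 367, 1121, 1002, 100 and 793 under the same alternatives without the pseudocount. Poly-A centring moved the list medians to -0.65 for loading partners, -0.18 for other class I and class I-like chains and 0.42 for the immunoproteasome. They were -0.59 for the standard proteasome subunits, -0.63 for class II and -0.48 for promoter-binding factors. For NOD-like receptors the median was -0.31, for ABC transporters -0.47 and for glial markers -0.74. Without _s_at and _x_at sets the immunoproteasome median was 0.57. The stricter and absent level minimum and the 1.5-fold threshold alter these counts by their construction. Centring on spike-in controls does so too, since it subtracts the same amount from every ratio and so from every list median. A larger pseudocount makes ratios smaller in size. Why the spike-in controls differed between the arrays was not tested.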

Other observations

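Other class I-like chains lay on both sides of 0. Of 17 on the list 9 were compared, with a median ratio of 0.33, 1 at least 2-fold higher and 0 lower. The stress ligands of the NKG2D receptor did not move as 1 group: MICA had 4728 on the miR-31 array and 6231 on the control array (-0.40), ULBP2 had 1709 against 2429 (-0.50), and MICB had 581 against 394 (0.54). HFE, an iron regulator with a class I fold that binds B2M, was the gene past 2-fold, with 1357 against 637 (1.07) on its brightest set and 15 sets between 0.11 and 1.07. MICB and HFE were picked after their values were seen.

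Relatives of NLRC5 and of the transporter were mostly dim. Of 12 NOD-like receptor genes 3 were compared and 0 were past 2-fold: NLRX1, a mitochondrial member, had 809 on the miR-31 array and 492 on the control array (0.70, and 1.479 on its other set), NOD1 had -0.38 with another set at 0.92, and NAIP had 0.20. Of 8 ABC transporters of the family of TAP1 and TAP2 named on the array, 4 were compared and 0 were past 2-fold, with ABCB10 at 0.08, ABCB6 at 0.25 and ABCB8 at 0.00. The remaining gene, ABCB9, had 57.2 on the miR-31 array and 124.1 on the control array, a ratio of -0.94, with its other kept set at -0.05. It is named after its values were seen.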
